A study of Homo sapiens with 6 samples.

Results

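The genes described here encode the enzymes that build nucleotides and the folate-bound one-carbon units that nucleotide synthesis uses. They are 34 genes chosen by name, in pathway arms: supply of the ribose donor PRPP and de novo purine synthesis, the branch from IMP to AMP and GMP, de novo pyrimidine synthesis, folate one-carbon metabolism, deoxynucleotide and thymidylate supply, and salvage. A gene was read through probe sets annotated to that gene symbol alone. On that rule 92 probe sets covered 32 of the 34 genes, out of 18132 genes on the array with such a probe set. Each gene was represented by its brightest probe set, and 31 of the genes, of 11715 in all, were bright enough to be tested. ALDH1L2 lay below that filter. ADSS2 was not analysed here, and NME1 had a probe set shared with the NME1-NME2 read-through gene only.

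All arrays read HMEC-1 cells, an endothelial line from human skin microvessels made immortal by a viral T antigen, in serum-free MCDB131 medium. One group of 3 arrays came from cells given EPC-Exos at 1e+11 particles per mL for 24 hours, and the other 3 arrays came from cells given an equal volume of PBS for the same time. The labels do not expand EPC-Exos; they are understood here as exosomes, small secreted vesicles, from human endothelial progenitor cells, which is background knowledge of the study. The question asked here is which steps of nucleotide and one-carbon metabolism had more or less RNA with the vesicles than with PBS.

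De novo purine synthesis assembles the purine ring step by step on PRPP and ends at IMP, from which AMP and GMP are made. Pyrimidine synthesis builds the ring first, as orotate, and then joins it to PRPP. Folate carries the one-carbon units for the purine ring and for thymidylate, ribonucleotide reductase turns ribonucleotides into deoxynucleotides for DNA, and salvage enzymes recover bases and nucleosides already made.

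Signals are on the deposited log2 scale, so a difference of 1 is a doubling, and each signal belongs to its own probe set and is not compared between genes. Array medians lay between 6.24 and 6.34, and arrays of different groups correlated at 0.988 to 0.989, against 0.997 within a group. The mean signal of the 17 Tag control probe sets, designed against artificial sequence, reached at most 4.97, and the 31 tested genes all lay above it in both groups. Of 11 endothelial marker genes, CDH5, TEK and CLDN5 were below that level in both groups, while 3 of the 7 tested were called higher (ENG, TIE1 and ESAM) and 0 lower, and PECAM1 (5.23 with EPC-Exos and 5.18 with PBS) lay just below the filter. The log2 of that list's summed signal was 10.92 to 10.98 with EPC-Exos and 10.35 to 10.58 with PBS. Such a sum weighs the brightest gene of a list most, here ENG (9.96 with EPC-Exos and 9.16 with PBS). In the blood cell and epithelial lists below that gene is CD68 and KRT18, so a sum is not a shift of the whole list. Of 6 fibroblast and smooth muscle markers, 3 of the 4 tested were lower with EPC-Exos (DCN, ACTA2 and PDGFRB), and MYH11 did not pass. The log2 of the list's summed signal was 8.15 to 8.32 with EPC-Exos and 9.55 to 9.69 with PBS. LUM, below the filter, had means of 3.67 with EPC-Exos, under the Tag level, and 5.97 with PBS. PDGFRA was below the Tag level in both groups. For 6 blood cell markers that sum was 8.79 to 8.92 with EPC-Exos and 8.25 to 8.32 with PBS, with CD68 called higher and PTPRC, CD14, MS4A1 and LYZ below the Tag level. For 5 epithelial markers it was 12.16 to 12.21 with EPC-Exos and 12.71 to 12.86 with PBS, with KRT8 and KRT18 called lower and CDH1 and KRT19 below the Tag level. The part of these markers in the results below was not tested.

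With EPC-Exos, the genes of nucleotide synthesis were higher in most of the de novo arms and lower in most of the deoxynucleotide arm. Of the 31 tested genes, 19 were called higher and 7 lower in limma at a Benjamini-Hochberg adjusted p under 0.05, and 5 did not pass. Over all 11715 genes tested 49.1% were called: 21.7% were called higher and 27.3% lower, so 61.3% higher among the members lies above that background and 22.6% lower lies close to it. The median log2 change was 0.27 over the 31 genes and -0.011 over all genes tested. The 2 groups of arrays did not overlap in 27 of the 31 genes, against 55.7% of all genes tested (25.5% with EPC-Exos above and 30.2% with EPC-Exos below). On the brightest probe sets and all 6 arrays, log2 changes ran from -0.84 ± 0.081 (SE) in RRM2B to 0.74 ± 0.054 in PAICS; with the mean of each gene's probe sets PAICS changed by 0.61 and CTPS1 by 0.65. By the threshold in the series' design text (1.5-fold or more, p under 0.05 before adjustment), 3 genes passed upward (PPAT, PAICS and IMPDH1) and 2 downward (RRM2B and TK2), where 9.89% of all genes tested passed, 3.94% upward and 5.96% downward. The arrays read RNA of whole cultures, so a shift in how many cells carry a transcript and a shift in RNA per cell cannot be told apart.

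**Figure D1:**
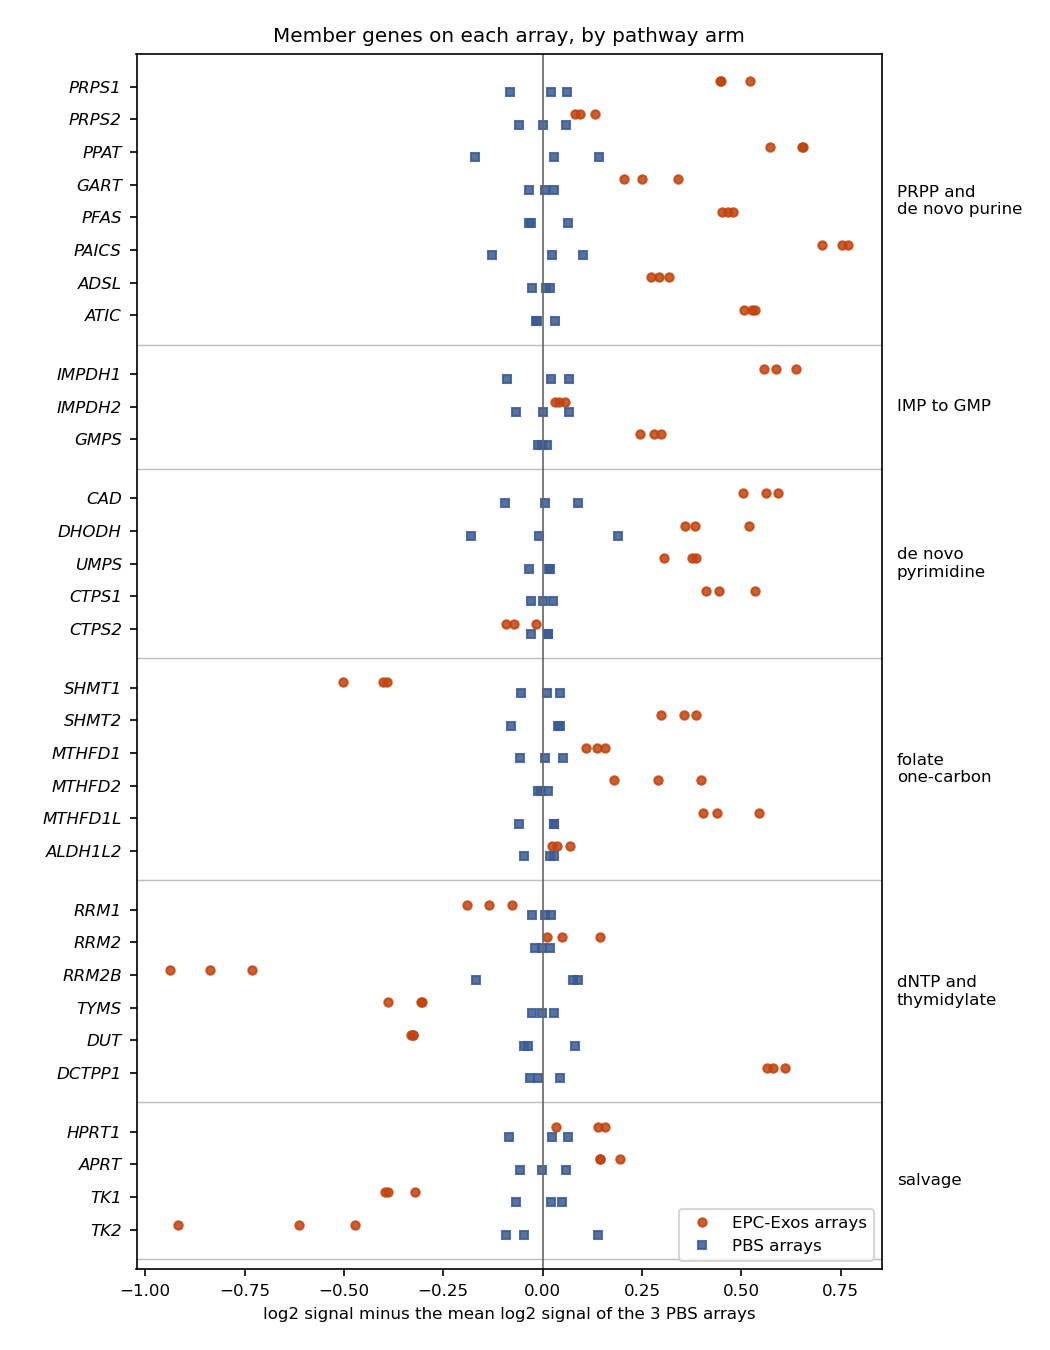
Log2 signal of each member gene on each of the 6 arrays, minus the mean of its 3 PBS arrays, with genes grouped by pathway arm; circles are EPC-Exos arrays and squares PBS arrays. The EPC-Exos arrays of the 8 purine genes all lie right of their PBS arrays, while those of RRM2B, TYMS, DUT, TK1 and TK2 all lie left.

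Among PRPP synthetases and the enzymes from PRPP to IMP, 7 of 8 genes were called higher (87.5%, against 21.7% of all genes tested). In this arm 0 were called lower (against 27.3%), and the median log2 change was 0.47. PAICS, a bifunctional enzyme of the middle of the pathway that carboxylates the imidazole ring and adds aspartate, had log2 signals of 11.55, 11.53 and 11.48 with EPC-Exos, against 10.88, 10.80 and 10.65 with PBS. All 3 treated arrays lay above all 3 PBS arrays, and the change was 0.74 ± 0.054 (SE; adjusted p = 9.12e-09). Both PAICS probe sets were called higher, but the second changed less, by 0.48; without EPC-Exos replicate 1, 2 or 3 that second probe set became the brightest, and the gene's change was 0.45, 0.45 and 0.53. PPAT, the amidotransferase that commits PRPP to purine synthesis, had 9.98, 10.06 and 10.06 with EPC-Exos, against 9.43, 9.23 and 9.55 with PBS. Its change was 0.63 ± 0.072 (SE; adjusted p = 1.78e-06), again with no overlap, and its other probe set changed by 0.60.

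PPAT and PAICS lie head to head on chromosome 4, so their shared upstream region is shown, because both genes rose. In the RefSeq table (GRCh38.p14) PPAT starts at base 56435615 on the minus strand, and 1 of the 3 PAICS starts in the table, on the plus strand, at base 56435752. The 136 bases between them, chr4:56435616-56435751 on the plus strand, lie upstream of both these starts and have a GC content of 75%:
PPAT-PAICS region: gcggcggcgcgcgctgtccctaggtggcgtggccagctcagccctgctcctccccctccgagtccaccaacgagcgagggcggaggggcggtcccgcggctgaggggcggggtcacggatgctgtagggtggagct
The motifs searched were CACGTG (the E-box bound by MYC with MAX), TTCCCGC or TTGGCGC (cores of E2F sites) and TGATGNAA (the CARE element bound by ATF4), on both strands, and 0 matches to any of them lie in this stretch, which says only that these letters are not in it. The E-box of the PPAT promoter lies beyond it, at bases 56435792 to 56435797, 40 to 45 bases after that PAICS start.

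The other purine enzymes rose by smaller amounts. ATIC, which carries out the last steps to IMP, had 10.70, 10.72 and 10.73 with EPC-Exos, against 10.23, 10.18 and 10.18 with PBS, a change of 0.52 ± 0.048. PRPS1, a PRPP synthetase, had 10.38, 10.38 and 10.45 with EPC-Exos, against 9.85, 9.95 and 9.99 with PBS, a change of 0.47 ± 0.055. PFAS, the glutamine-using amidotransferase of the middle of the pathway, had 10.30, 10.32 and 10.33 with EPC-Exos, against 9.82, 9.82 and 9.92 with PBS, a change of 0.47 ± 0.053. In each of these genes the lowest treated array lay above the highest PBS array by more than the spread within either group. ADSL, adenylosuccinate lyase, had 11.56, 11.54 and 11.58 with EPC-Exos, against 11.24, 11.27 and 11.28 with PBS (change 0.30 ± 0.040). GART, a trifunctional enzyme with formyltransferase activity, had 9.70, 9.83 and 9.75 with EPC-Exos, against 9.46, 9.52 and 9.50 with PBS (change 0.27 ± 0.058). Adjusted p in limma ran from 1.33e-07 in ATIC to 0.00118 in GART. GART's 4 tested probe sets were all called higher, with changes of 0.27 to 0.68, so its brightest one gave the smallest value. PRPS2, the second PRPP synthetase, was the gene of the arm that did not pass: it had 10.50, 10.55 and 10.51 with EPC-Exos, against 10.42, 10.48 and 10.36 with PBS, a change of 0.10 ± 0.050 with a 95% interval of -0.0039 to 0.21 and an adjusted p of 0.104.

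After IMP the pathway splits, and the GMP branch was measured in 3 genes. Of these 2 were called higher (66.7%, against 21.7% of all genes tested). IMPDH1, an isoform of the rate-limiting IMP dehydrogenase, had 10.70, 10.78 and 10.73 with EPC-Exos, against 10.05, 10.16 and 10.21 with PBS, a change of 0.59 ± 0.054 (SE; adjusted p = 1.17e-07), and its 4 probe sets were all called higher (0.49 to 0.59). IMPDH2, the isoform known for its induction in growing cells, had 12.32, 12.35 and 12.33 with EPC-Exos, against 12.22, 12.29 and 12.36 with PBS. These arrays overlapped, and the change of 0.043 ± 0.038, with a 95% interval of -0.038 to 0.12, did not pass (adjusted p = 0.382); of its 6 probe sets 1 was called higher and 5 did not pass. GMPS, which makes GMP from XMP, had 11.46, 11.48 and 11.42 with EPC-Exos, against 11.17, 11.18 and 11.19 with PBS, a change of 0.27 ± 0.041 (adjusted p = 3.05e-05). ADSS1, the muscle-type adenylosuccinate synthase of the AMP branch and no member, fell by 0.34 (adjusted p = 0.00231).

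In the pyrimidine arm 4 of 5 genes were called higher (80%, against 21.7% of all genes tested) and 0 lower (against 27.3%). The arm's median log2 change was 0.42. CAD, the trifunctional enzyme of the opening steps, had 9.60, 9.63 and 9.54 with EPC-Exos, against 8.94, 9.04 and 9.12 with PBS, a change of 0.55 ± 0.064 (SE; adjusted p = 2.12e-06). CTPS1, the CTP synthase known from proliferating lymphocytes, had 10.64, 10.76 and 10.67 with EPC-Exos, against 10.26, 10.20 and 10.23 with PBS, a change of 0.46 ± 0.051. Both genes stood clear of their PBS arrays, and the 4 CTPS1 probe sets were all called higher, by 0.46 to 0.76. UMPS, which makes UMP from orotate, had 10.97, 11.04 and 11.05 with EPC-Exos, against 10.63, 10.68 and 10.68 with PBS, a change of 0.36 ± 0.046, and 2 of its 3 probe sets were called higher while 1 did not pass. DHODH, the mitochondrial enzyme that makes orotate, had 7.07, 7.21 and 7.05 with EPC-Exos, against 6.68, 6.51 and 6.88 with PBS. Its change of 0.42 ± 0.10 (adjusted p = 0.00234) was 0.27 when 64 was added to the linear signals. CTPS2, the second CTP synthase, had 8.31, 8.37 and 8.29 with EPC-Exos, against 8.35, 8.40 and 8.40 with PBS, a change of -0.060 ± 0.067 with a 95% interval of -0.20 to 0.082, and did not pass. Its 2 probe sets disagreed, since the dimmer one was called higher by 0.40, and the mean of both gave 0.17 (adjusted p = 0.0268), so no direction is given for CTPS2.

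**Figure D2:**
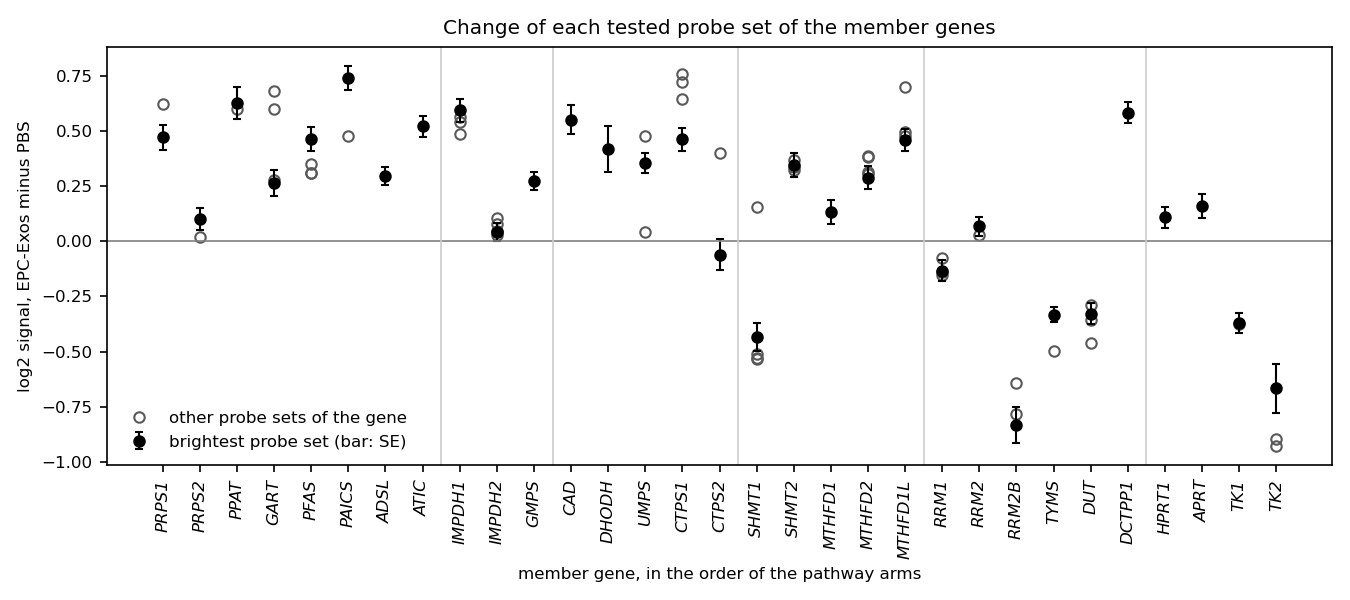
Log2 change (EPC-Exos minus PBS) of every tested probe set of the member genes, with filled circles for the brightest probe set of a gene (bar: limma SE) and open circles for its other probe sets. Open circles lie near the filled ones for most genes; CTPS2 and SHMT1 each have 1 probe set on the other side of 0.

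Of the 92 member probe sets 82 were bright enough for a fit over probe sets, in which 47 were called higher, 21 lower and 14 did not pass, where 22.1% of all probe sets tested were called higher and 23.7% lower. Of 22 genes with several tested probe sets, 15 had all of them called in 1 direction and 0 had calls in both directions.

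Folate one-carbon metabolism runs in parallel in the cytosol and in mitochondria. Of 5 tested genes 4 were called higher (80%, against 21.7% of all genes tested) and 1 lower (20%, against 27.3%). MTHFD1L, the mitochondrial enzyme that releases formate, had 11.29, 11.40 and 11.25 with EPC-Exos, against 10.88, 10.88 and 10.79 with PBS, a change of 0.46 ± 0.049 (SE; adjusted p = 7.8e-07), with its 4 probe sets called higher by 0.46 to 0.70. SHMT2, the mitochondrial serine hydroxymethyltransferase that loads one-carbon units from serine, had 10.33, 10.41 and 10.38 with EPC-Exos, against 9.95, 10.07 and 10.07 with PBS, a change of 0.35 ± 0.054. MTHFD2, the mitochondrial dehydrogenase that oxidises them, had 11.18, 11.40 and 11.29 with EPC-Exos, against 10.99, 11.02 and 11.00 with PBS, a change of 0.29 ± 0.052. In all 5 tested genes of the arm no treated array overlapped a PBS array, which also held for 55.7% of all genes tested. Of the 3 mitochondrial genes MTHFD2 had the widest spread among treated arrays. In the cytosol the values differed: SHMT1, the cytosolic serine hydroxymethyltransferase, had 8.96, 8.98 and 8.86 with EPC-Exos, against 9.31, 9.38 and 9.41 with PBS, a change of -0.43 ± 0.063 (adjusted p = 2.42e-05). Of its 5 probe sets 4 were called lower and 1 did not pass (0.16). MTHFD1, the cytosolic trifunctional enzyme, had 10.15, 10.17 and 10.12 with EPC-Exos, against 10.02, 10.07 and 9.96 with PBS. Its small change of 0.13 ± 0.053 passed narrowly (adjusted p = 0.0448) and did not pass without PBS replicate 3 (0.138) or without EPC-Exos replicate 1, 2 or 3 (0.115, 0.125 and 0.0854), nor with quantile (0.0851) or cyclic loess scaling (0.057), array weights (0.053), no filter (0.0585) or no variance trend (0.0774), all given as adjusted p. ALDH1L2, the mitochondrial enzyme that returns one-carbon units as carbon dioxide, had means of 3.94 ± 0.024 with EPC-Exos and 3.90 ± 0.042 with PBS (SD, n = 3 each), below the Tag level in both groups, so no level can be given.

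Genes around this arm were taken from a list of 17 serine and folate genes, of which 11 were tested. They were called higher in 7 cases (63.6%, against 21.7% of all genes tested) and lower in 1 (9.09%, against 27.3%). The median log2 change was 0.34. Among the list's serine synthesis genes PSAT1 rose by 0.40 ± 0.066, while PHGDH (-0.12 ± 0.062) and PSPH (-0.091 ± 0.063) did not pass. MTHFD2L, a mitochondrial relative of MTHFD2, had means of 7.58 ± 0.046 with EPC-Exos and 6.00 ± 0.25 with PBS (SD, n = 3 each), a change of 1.58 ± 0.11 (SE; adjusted p = 6.43e-09), and both its tested probe sets were called higher. The folate carriers SLC19A1, of the plasma membrane (0.84 ± 0.071), and SLC25A32, of the mitochondrion (0.77 ± 0.067), rose in all their tested probe sets. GCSH, of the glycine cleavage system, rose by 0.49 ± 0.12, but the system did not move as one. AMT, also of it, was the list's gene called lower (-0.25 ± 0.087), with 2 of 6 tested probe sets called lower. GLDC, its decarboxylase, was below the Tag level in both groups (means of 3.99 with EPC-Exos and 3.92 with PBS). In the methionine cycle 3 of 7 tested genes were called higher (42.9%) and 1 lower (14.3%), beside the same shares of all genes tested. That list's median log2 change was 0.0042. MTAP, which salvages methylthioadenosine, rose by 0.76 ± 0.088, MTR, methionine synthase, by 0.23 ± 0.063 and its reductase gene MTRR by 0.16 ± 0.064. MAT2B, a regulatory subunit of methionine adenosyltransferase, changed by -0.30 ± 0.046. The 6 tested MTAP probe sets changed by 0.22 to 0.76, with 5 called higher. The 3 tested MTR probe sets changed by 0.075 to 0.24, with 1 called higher.

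The E-box letters CACGTG occurred in the 250 bases before at least 1 start of 6 of the 29 member genes with a promoter in the RefSeq table, or 20.7%. Of all 27305 genes in that table, which were not limited to genes tested here, 7.73% had one. Counted by start, the share was 15.9% for members and 6.34% for the whole table. All 6 genes, ATIC, DCTPP1, DHODH, MTHFD1, MTHFD1L and PPAT, are among those called higher, MTHFD1 narrowly. But 17 of the 29 genes were called higher, so the 6 are 35.3% of these. Of the 6 genes called lower that have a promoter in the table, 0 had the letters. With the letters in 7.73% of all genes, 6 genes are too few to show a lack. The letters are printed because they stand before genes called higher in 4 arms. They are given 5′ to 3′ on the gene's strand in GRCh38.p14, with the E-box in capitals:
PPAT, chr4:56435781-56435808, minus strand: acggagatttcCACGTGcagcaaataca
ATIC, chr2:215312002-215312029, plus strand: ggccggcgggcCACGTGataagcccgga
DHODH, chr16:72008574-72008601, plus strand: ccgctactgcgCACGTGcacccaaccag
MTHFD1, chr14:64388327-64388352, plus strand: cagtccctaagCACGTGggttgggtt
MTHFD1L, chr6:150866321-150866348, plus strand: acgcccggctcCACGTGcgcagccggcc
DCTPP1, chr16:30429801-30429820, minus strand: gagggttcctcCACGTGgtc
The E-box starts 46 bases before the start of ATIC, 159 before that of DHODH, 15 before that of MTHFD1 and 9 before that of DCTPP1. In MTHFD1L, which has 4 starts in the table, it begins 154 bases before one and 115 before another, and the CARE letters stand a short way downstream of it without overlapping:
MTHFD1L, chr6:150866346-150866375, plus strand: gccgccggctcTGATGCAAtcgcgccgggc
CARE letters were found in 3.89% of all genes in the table and in 1 member. The matches are a description of sequence and say nothing of binding. The RNA of MYC rose by 0.70 ± 0.046 (SE; adjusted p = 2.38e-09) and that of ATF4 changed by 0.032 ± 0.037 and did not pass (adjusted p = 0.507); both are transcription factors known to act on genes of these arms, and the part of either in the members' changes was not tested.

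The deoxynucleotide arm went the other way in most genes. Of 6 tested genes 4 were called lower (66.7%, against 27.3% of all genes tested). Another 1 was called higher (16.7%, against 21.7%) and 1 did not pass. The arm's median change was -0.23 (log2), and so few genes make its shares coarse. RRM2B, the small ribonucleotide reductase subunit induced by p53 that serves resting cells and mitochondrial DNA, had 8.38, 8.27 and 8.18 with EPC-Exos, against 9.20, 8.94 and 9.19 with PBS. All treated arrays lay below all PBS arrays, by a change of -0.84 ± 0.081 (SE; adjusted p = 2.64e-07), and its 3 tested probe sets were all called lower. Its other 6 probe sets were too dim to be tested, and the mean of all 9 gave -0.34 (adjusted p = 0.00308). TYMS, thymidylate synthase, had 12.57, 12.56 and 12.48 with EPC-Exos, against 12.90, 12.84 and 12.87 with PBS, a change of -0.33 ± 0.034 (adjusted p = 5.16e-07). DUT, which removes dUTP, had 10.97, 10.96 and 10.97 with EPC-Exos, against 11.25, 11.26 and 11.38 with PBS, a change of -0.33 ± 0.046 (adjusted p = 1.8e-05). In TYMS and DUT every tested probe set was called lower.

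The 2 main subunits of ribonucleotide reductase moved little. RRM1, the large subunit, had 10.83, 10.72 and 10.78 with EPC-Exos, against 10.93, 10.88 and 10.92 with PBS, and its change of -0.13 ± 0.047 passed (adjusted p = 0.0263). The RRM1 call was lost without EPC-Exos replicate 2 or 3 or PBS replicate 3 (adjusted p = 0.117, 0.0761 and 0.0501), with each array centred on its median (0.106) and with no variance trend (0.0802). RRM2, the small subunit of S phase, had 11.97, 12.10 and 12.01 with EPC-Exos, against 11.95, 11.94 and 11.98 with PBS, and its change of 0.068 ± 0.040, with a 95% interval of -0.018 to 0.15, did not pass (adjusted p = 0.182). DCTPP1, a pyrophosphatase that clears dCTP and its modified forms, was the tested gene of this arm that was called higher. It had 10.81, 10.79 and 10.84 with EPC-Exos, against 10.19, 10.22 and 10.27 with PBS. Its change was 0.58 ± 0.048 (SE, limma adjusted p = 4.07e-08), and its treated arrays stood clear of its PBS arrays. NME1, also of this arm, was not tested, but the probe set it shares with NME1-NME2 was higher with EPC-Exos by 0.57, as described at the end.

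Of 4 salvage genes 2 were called lower (50%, against 27.3% of all genes tested). Another 1 was called higher (25%, near the 21.7% of all genes tested) and 1 did not pass. The thymidine kinase genes were both lower: TK1, the cytosolic enzyme of S phase, had 11.15, 11.22 and 11.15 with EPC-Exos, against 11.47, 11.59 and 11.56 with PBS, a change of -0.37 ± 0.045 (adjusted p = 3.52e-06). TK2, the mitochondrial enzyme, had 6.65, 6.35 and 6.79 with EPC-Exos, against 7.17, 7.40 and 7.22 with PBS, a change of -0.67 ± 0.11 (adjusted p = 8.93e-05). The treated arrays of TK2 spread by more than its PBS arrays, its 3 probe sets were all called lower (-0.93 to -0.67), and its change was -0.44 when 64 was added to the linear signals. The purine phosphoribosyltransferase APRT had 10.06, 10.01 and 10.01 with EPC-Exos, against 9.81, 9.86 and 9.93 with PBS. Its change of 0.16 ± 0.055 passed (adjusted p = 0.0214), but not without EPC-Exos replicate 1 (0.0954), EPC-Exos replicate 3 (0.0548) or PBS replicate 1 (0.0547). HPRT1, which recovers hypoxanthine and guanine, had 11.74, 11.73 and 11.62 with EPC-Exos, against 11.65, 11.61 and 11.50 with PBS; the arrays overlapped, and its change of 0.11 ± 0.047 did not pass (adjusted p = 0.0659). The HPRT1 change did pass without EPC-Exos replicate 3 (0.0323), without PBS replicate 1 (0.0214), with the replicate number as a block (0.0212) and with the mean of probe sets of each gene (0.0467).

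Letters of an E2F core occurred before at least 1 start of 8 of the 29 member genes with a promoter in the table, or 27.6%. The share was 9.4% of all genes in it, which again were not limited to genes tested here. Counted by start, it was 18.2% for members and 7.81% for the whole table. They stood before 4 of 6 genes called lower (DUT, RRM1, TK1 and TYMS), 2 of 17 called higher (GART and PAICS), and RRM2 and PRPS2, which did not pass. Those of the genes called lower are shown on the gene's strand, with the core in capitals, as GCGGGAA where it reads on the opposite strand:
TK1, chr17:78187053-78187075, minus strand: aagcggtcggcGCGGGAAccagg
TYMS, chr18:657603-657631, plus strand: gcgggacggccGCGGGAAaaggcgcgcgg
RRM1, chr11:4094451-4094479, plus strand: caagaaaaacgTTCCCGCcggttaggttt
DUT, chr15:48332144-48332172, plus strand: gggcggggctgGCGGGAAatttcggtttt
DUT, chr15:48332160-48332188, plus strand: aaatttcggttTTGGCGCgctccctgcgg
The core starts 12 bases before a start of TK1, 39 before that of TYMS and 223 before that of RRM1. In DUT, with 4 starts in the table, both cores precede the same start, from 42 and 26 bases before it, and they do not overlap. These matches, too, are a description of sequence and say nothing of binding. Among E2F genes, which drive transcription of S phase genes, E2F4, mostly a repressor, rose by 0.50 ± 0.065. E2F2, an activator, changed by -0.54 ± 0.096. E2F1 (change -0.14 ± 0.089, adjusted p = 0.212) and E2F3 (change 0.14 ± 0.057, adjusted p = 0.0585) did not pass in limma. Of 3 tested E2F3 probe sets 1 was called higher. The part of any E2F gene in the members' changes was not tested.

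DNA replication genes of S phase, whose products use deoxynucleotides, were counted beside this arm. Of 39 tested genes 18 were called lower (46.2%, against 27.3% of all genes tested), 3 were called higher (POLE2, PRIM1 and ORC1) and 18 did not pass; the list's median log2 change was -0.12. By the brightest probe set, those that fell most were MCM6, a helicase subunit (-0.67 ± 0.052), CCNE2, cyclin E2 (-0.53 ± 0.068), and PCNA, the sliding clamp (-0.47 ± 0.035). The helicase subunit gene MCM2 came next (-0.41 ± 0.062). Each of these genes was lower in all its tested probe sets. The other PCNA probe set changed by -0.998, beyond the MCM6 probe sets (-0.73 to -0.67), so the order depends on the probe set. The part of the cells' cycle in the falls of TYMS, DUT, TK1 and RRM1 was not tested.

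**Figure D3:**
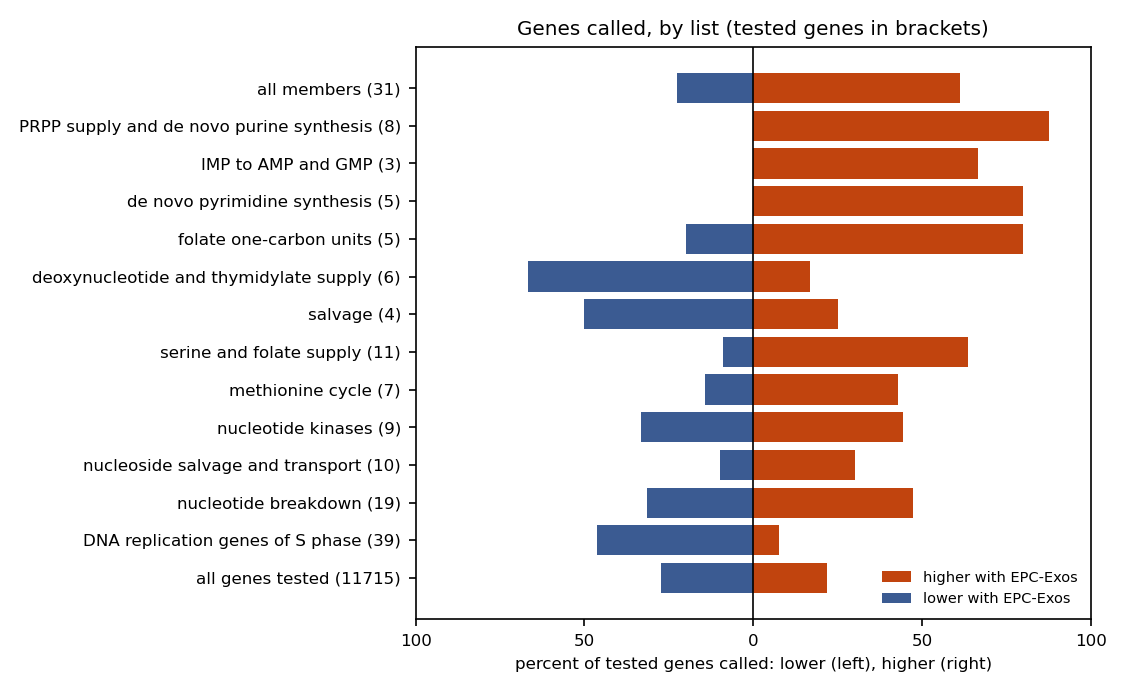
Percent of tested genes called higher (right, EPC-Exos above PBS) or lower (left) in each pathway arm, in related lists and in all genes tested, with the number tested in brackets. The purine and pyrimidine arms have no bar on the left, while the deoxynucleotide arm and the 39 replication genes reach further left than right.

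Several steps are served by related enzymes, and 7 pairs of them are described here, chosen with the changes of their genes known. The log2 signal of the first gene minus that of the second was compared between groups by a two-sided exact permutation test over arrays; with 3 against 3 arrays p cannot go below 0.1, and all 7 pairs gave that value, before and after Benjamini-Hochberg adjustment, so none could pass 0.05 and the values below are a description. The difference between the 2 changes was 0.90 for RRM2 minus RRM2B, which had means of 3.75 ± 0.14 with EPC-Exos and 2.84 ± 0.13 with PBS (SD, n = 3 each). For SHMT1 minus SHMT2 it was -0.78, from -1.44 ± 0.078 with EPC-Exos and -0.66 ± 0.027 with PBS. IMPDH1 minus IMPDH2 gave 0.55, CTPS1 minus CTPS2 0.52, PRPS1 minus PRPS2 0.37, MTHFD1 minus MTHFD1L -0.33 and TK1 minus TK2 0.30. The CTPS pair rests on the CTPS2 probe set described above. The TK pair rests on the size of the TK2 change: with 64 added to the linear signals TK1 changed by -0.36 and TK2 by -0.44.

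**Figure D4:**
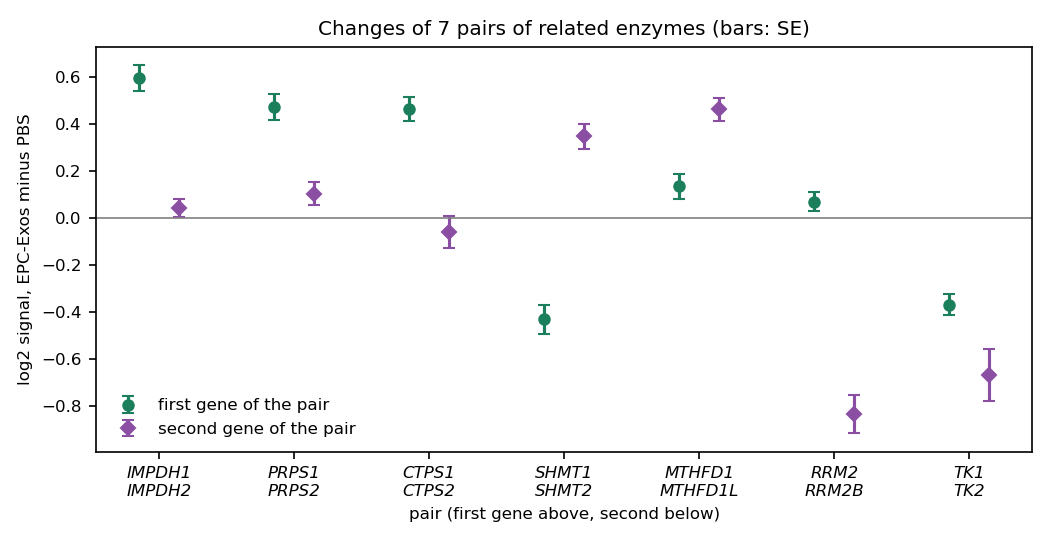
Log2 change (EPC-Exos minus PBS, bar: limma SE) of the first and second gene of 7 pairs of related enzymes. SHMT1 lies below 0 and SHMT2 above it, RRM2B lies far below RRM2, and IMPDH1, PRPS1 and CTPS1 lie above their partners.

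Other lists of genes around the pathways are given beside the 21.7% called higher and 27.3% called lower over all genes tested. Among nucleotide kinases 4 of 9 tested genes were called higher (44.4%) and 3 lower (33.3%), with NME4 (0.48 ± 0.062) and AK4 (0.32 ± 0.050) higher and NME3 (-0.33 ± 0.073) and AK3 (-0.32 ± 0.047) lower. Of 10 tested nucleoside salvage and transport genes 3 were called higher (30%), 1 lower (10%) and 6 did not pass, so the share called higher lay near the background and that called lower below it. UCK2, a uridine and cytidine kinase, rose by 0.92 ± 0.058, SLC29A1, the main nucleoside carrier of the plasma membrane, by 0.66 ± 0.072 and ADK, adenosine kinase, by 0.16 ± 0.051, while UCK1, the other uridine and cytidine kinase, changed by -0.29 ± 0.080. Both UCK2 probe sets were called higher (0.34 and 0.92), but 1 of the 2 tested SLC29A1 probe sets did not pass. Of the tested probe sets, 1 of 2 of ADK was called higher and 2 of 3 of UCK1 were called lower.

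Of 19 tested genes of nucleotide breakdown 9 were called higher (47.4%) and 6 lower (31.6%, close to the 27.3% of all genes tested). SAMHD1, which destroys deoxynucleotides and is also known as an interferon-induced gene, had means of 9.40 ± 0.11 with EPC-Exos and 8.18 ± 0.047 with PBS (SD, n = 3 each), a change of 1.22 ± 0.071 (SE; adjusted p = 6.22e-10), in the direction of its 3 tested probe sets. PNP, purine nucleoside phosphorylase, rose by 0.92 ± 0.053. GMPR, which turns GMP back to IMP, changed by -0.86 ± 0.10, and CDA, cytidine deaminase, by -0.64 ± 0.082. Of the partners of PRPP synthetase, PRPSAP1 changed by -0.26 ± 0.055 and was called lower, while PRPSAP2 did not pass (0.016 ± 0.063).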

How the data were processed

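RNA of 6 HMEC-1 samples was hybridised to Affymetrix 3′ IVT arrays, per the labels' protocols, and grouped by sample title. The authors deposited log2 signals for 49395 probe sets. The submitters' processing notes name MAS5 but not what it was used for, and further steps are not given in the sources used here. No detection calls were used, so depth shows only as signal over the Tag controls, and the number of arrays limits precision. Nothing in the labels says that replicates were separate cultures, so the spread behind each p-value may be technical. They name no batch, so batch and treatment cannot be told apart.

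The platform annotation gave exactly 1 gene symbol for 44988 probe sets. The brightest of them by mean signal stood for each gene, which was tested where that mean reached the 40th percentile of non-control probe sets (5.45 on the log2 scale). The comparison used R 4.3.3 and limma 3.58.1 (lmFit, eBayes with a variance trend, group as the only term), two-sided, with Benjamini-Hochberg adjustment over all genes tested. Changes are EPC-Exos minus PBS, and SE is limma's moderated error. Values of genes below the filter come from the same fit without it. Promoters are RefSeq's (GRCh38.p14). The fit was tested on simulated data. The members, lists, pairs and motifs were chosen with earlier results of these data known. All 34 members are named. Of each related list, up to 4 called genes by size of change are named. Others (ATF4, E2F1, E2F3, PRPSAP2, AMT, GLDC, PSAT1, PHGDH, PSPH and cell type markers) were added after their values were seen. Alternatives covered scaling, offsets of 16 and 64 on linear signals, the filter, probe set choice, the variance model, a replicate block, a minimum fold of 1.2 and leaving out each array.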

Additional observations from a re-analysis of the deposited data

How the results depend on the processing

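Over 19 alternatives the 31 tested members gave 583 comparisons with their main result, of which 547 kept their direction and side of the threshold, 31 lost the call, 4 gained it (HPRT1) and 1 turned in sign. Against a minimum fold of 1.2 (limma's treat), 10 members were called higher (PRPS1, PPAT, PFAS, PAICS, ATIC, IMPDH1, CAD, CTPS1, MTHFD1L and DCTPP1) and 2 lower (RRM2B and TK2), with 773 and 1068 of all genes tested; fewer calls follow from the stricter test. With the mean of each gene's probe sets, CTPS2 turned to 0.17. Leaving out 1 array left 17 to 19 members called higher and 6 to 7 lower. Quantile, cyclic loess and median scaling left 18 to 19 higher and 6 to 7 lower. Same-numbered arrays of the 2 groups had deviations that correlated at 0.207, 0.196 and 0.0852, and differently numbered ones at -0.197 to 0.0140. Each array thus correlated best with its own number. The main fit did not use the number as a pairing, and whether it marks one was not tested. With the replicate block 20 members were called higher and 7 lower, and 2724 and 3394 of all genes, against 2545 and 3203 of all genes without it. Signal over background limits the folds of DHODH and TK2, which were 0.27 and -0.44 on the log2 scale with 64 added to linear signals.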

Other observations

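The probe set shared by NME1, a nucleoside diphosphate kinase gene, and the NME1-NME2 read-through gene had log2 signals of 12.10, 12.09 and 12.12 with EPC-Exos, against 11.54, 11.51 and 11.54 with PBS. The means were 12.10 ± 0.011 with EPC-Exos and 11.53 ± 0.015 with PBS (SD, n = 3 each), a difference of 0.57, and the 2 transcripts cannot be told apart by it.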
